A study of Mus musculus with 25 samples.

Results

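The genes described are 10 acyl-CoA synthetases, out of 54752 genes in the deposited count tables, found by joining their symbols to Ensembl identifiers. By the chain length of the fatty acids that their products are known to activate, 3 are short chain members (Acss1, Acss2 and Acss3), 2 are medium chain members (Acsm3 and Acsm5) and 5 are long chain members (Acsl1, Acsl3, Acsl4, Acsl5 and Acsl6). The list was built around Acsm3, a gene chosen by its measured counts because it led the genes raised by Acod1 loss in epididymal fat. In that contrast its fitted log2 difference was 3.63 (SE 0.58), and it stood 1st by test and 142nd by size of difference among 8227 genes with a higher fitted value in Acod1-/- mice. The gene next in order by test, Snx25, differed by 0.67 (SE 0.11) on the log2 scale. Levels of the members in that contrast are therefore given as a description, without a test.

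Acyl-CoA synthetases join a free fatty acid to coenzyme A at the cost of ATP, and an acid must be activated in this way before it can be oxidised, esterified or used to modify proteins. In adipocytes the long chain enzyme ACSL1 feeds fatty acids into both oxidation and triglyceride synthesis. ACSS2 makes acetyl-CoA from acetate in the cytosol and nucleus, ACSS1 does so in mitochondria, and ACSS3 is a mitochondrial enzyme with a preference for propionate. The ACSM enzymes act in the mitochondrial matrix on medium chain acids.

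RNA was sequenced from epididymal (eWAT) and inguinal (iWAT) white adipose tissue of male C57BL/6N mice, as 25 libraries in 6 groups, to ask how a high-fat diet (HFD) and the loss of Acod1, the enzyme that makes itaconate, affect these depots. In eWAT there were 4 libraries of wild type (WT) mice on a normal chow diet (ND), 5 of WT mice on HFD and 5 of Acod1-/- mice on HFD. In iWAT the same groups held 3, 5 and 3 libraries. Mice were 5 weeks old when HFD, with 60% of its calories from fat, began, and it lasted 16 weeks, although the labels give 17 and 18 weeks for iWAT Acod1-/- libraries 2 and 3. Acod1 was missing from the whole body, the study bred its mice from heterozygous parents, and no ND-fed Acod1-/- library was analysed here. A difference between genotypes was therefore measured on HFD alone. Each library is named below by its group and number.

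The counts on genes summed to between 31.41 and 52.34 M (mega, M) per library, with a median of 42.09 M. Acod1 itself had 0 to 9 counts per library, too few to check a genotype label. The library numbers in the column headers fall into 2 series, and the second holds every ND library but only library 5 of each HFD-fed WT group and of eWAT Acod1-/-, and library 3 of iWAT Acod1-/-. Summed CPM (counts scaled to library size) of 8 adipocyte markers lay between 22380 and 51010 in every library. Some libraries also held other cells, since 6 epididymis markers summed to 7634 CPM in eWAT ND library 2 and to 1052 CPM in eWAT Acod1-/- library 5. In bulk tissue, fewer cells of a type and less RNA per cell cannot be told apart.

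Acsm3 (ENSMUSG00000030935) spans bases 119760923 to 119787513 of chromosome 7 on the plus strand of GRCm38, and Acsm5 (ENSMUSG00000030972) lies upstream of it at 119519463 to 119545551 on the same strand. Both are protein coding, as are all 10 members. To place the gene the list was built around beside the other medium chain member on its chromosome, the 250 bases before the RefSeq start of each (GRCm38.p6, plus strand) are shown, at chr7:119760673-119760922 for Acsm3 and chr7:119526015-119526264 for Acsm5, with CCAAT in capitals on either strand (ATTGG is its reverse complement).
Acsm3: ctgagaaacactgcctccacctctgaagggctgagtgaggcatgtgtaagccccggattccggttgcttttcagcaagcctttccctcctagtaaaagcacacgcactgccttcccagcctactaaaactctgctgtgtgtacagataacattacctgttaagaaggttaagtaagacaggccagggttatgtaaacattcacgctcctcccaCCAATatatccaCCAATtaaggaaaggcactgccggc
Acsm5: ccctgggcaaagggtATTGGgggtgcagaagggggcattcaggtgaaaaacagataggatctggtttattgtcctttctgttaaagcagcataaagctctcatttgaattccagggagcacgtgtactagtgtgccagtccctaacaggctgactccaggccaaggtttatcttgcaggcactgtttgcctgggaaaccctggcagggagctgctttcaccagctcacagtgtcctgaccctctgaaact
The Acsm3 window ends directly before the span of Acsm3 given above. The Acsm5 window lies inside the span of Acsm5, because its RefSeq start is downstream of the start of that span. The Acsm3 window held CCAAT at 37 and 25 bases before the start, and the Acsm5 window held it once, 235 bases before the start, while 33.85% of 32851 promoters of the same length held it at least once. The letters CACGTG, an E-box, occurred once in the Acsm5 window, 132 bases before the start, and in 6.02% of all promoters. Neither window held the letters TCACNCCAC (a sterol regulatory element, in 1.05% of promoters) or AGGTCA (a nuclear receptor half-site, in 14.02%), searched on both strands. The 2 windows held 5 and 1 CpG dinucleotides, beside a median of 6 over all promoters. Acsl3, Acss1, Acss2, Acsl4 and the upstream start of Acsl1 held 13 to 28, whereas Acsl5 held 7, the downstream start of Acsl1 held 2 and the 3 starts of Acsl6 held 3, 30 and 1. RefSeq promoters were matched for 9 of the 10 members.

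By level per length (TPM, counts scaled to gene length and then to the library), the family was dominated by Acsl1 in every group. Its mean was 430 TPM in eWAT ND, 392 in eWAT WT HFD and 380 in eWAT Acod1-/- HFD, and 709, 738 and 633 TPM in the same groups of iWAT. In each of the 6 groups every library's Acsl1 level lay above every other member's. Acsl6 was last in every group, with a mean of at most 0.129 TPM, and its libraries lay below those of all other members.

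The order between these ends changed with diet. In eWAT ND the members followed Acsl1 in the order Acss3 (105 TPM), Acsl5, Acss2, Acsl4, Acsm5, Acsm3 (16.0 TPM), Acss1 and Acsl3 (10.4 TPM). Here Acss3 lay apart from both of its neighbours, the libraries of Acsl5 to Acsm3 overlapped from 1 member to the next, and so did those of Acss1 and Acsl3. In eWAT WT HFD, Acss3 (27.9 TPM) stood 4th, behind Acsl1, Acsl5 and Acss2, and overlapped with Acss2 and Acsl4. Acsm5 (4.36 TPM) and Acsm3 (0.598 TPM) were 8th and 9th there, each apart from its neighbours. In eWAT Acod1-/- HFD, Acss3 (50.1 TPM) was 3rd, Acsm5 (12.4 TPM) 6th and Acsm3 (7.19 TPM) 9th, but neighbours from Acss2 down to Acsm3 overlapped throughout. In iWAT ND, Acss1 (28.6 TPM) and Acsm3 (23.2 TPM) were 5th and 6th, both apart from their neighbours, while Acsm3 was 9th in iWAT WT HFD (1.63 TPM) and 8th in iWAT Acod1-/- HFD (8.38 TPM).

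**Figure D1:**
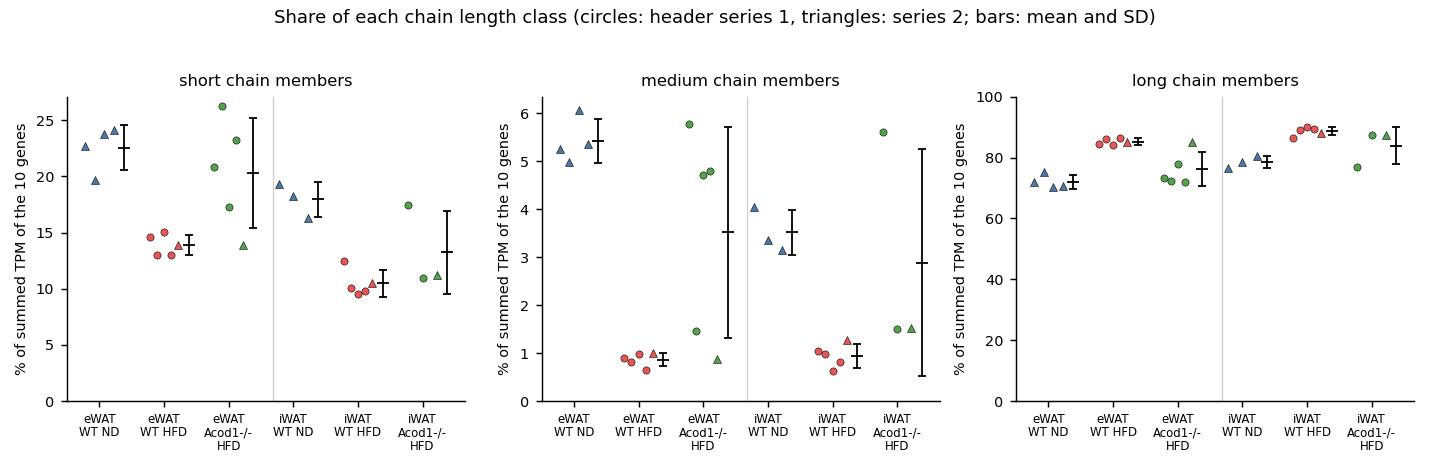
Share (%) of the summed TPM of the 10 genes held by short, medium and long chain members in each library, with points for libraries, circles and triangles for header series 1 and 2, and bars for the mean and SD of a group. The medium chain share lies between 4.98% and 6.07% in eWAT ND and between 0.643% and 0.994% in eWAT WT HFD, and spreads from 0.868% to 5.77% in eWAT Acod1-/- HFD. It includes Acsm3, which the eWAT HFD libraries chose, and is a description.

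Summed by chain length, the long chain members held 72.0% ± 2.38 (SD, n = 4) of the family's TPM in eWAT ND, 85.2% ± 1.02 (n = 5) in eWAT WT HFD and 76.2% ± 5.62 (n = 5) in eWAT Acod1-/- HFD. In iWAT they held 78.5% ± 1.96 (n = 3), 88.6% ± 1.32 (n = 5) and 83.9% ± 6.05 (n = 3). The sums themselves show where the difference in share lay. Long chain TPM was 513 ± 80.7 in eWAT ND and 489 ± 75.9 in eWAT WT HFD, while medium chain TPM was 38.9 ± 8.28 and 4.96 ± 1.03 and short chain TPM ranged from 124.8 to 214.0 and from 70.29 to 92.39. The medium and short chain sums of these groups did not overlap in eWAT, and the long chain sums did. In iWAT, medium chain TPM was 35.0 ± 2.70 on ND and 8.44 ± 1.38 on HFD, and short chain TPM was 179 ± 12.7 and 95.5 ± 7.82.

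**Figure D2:**
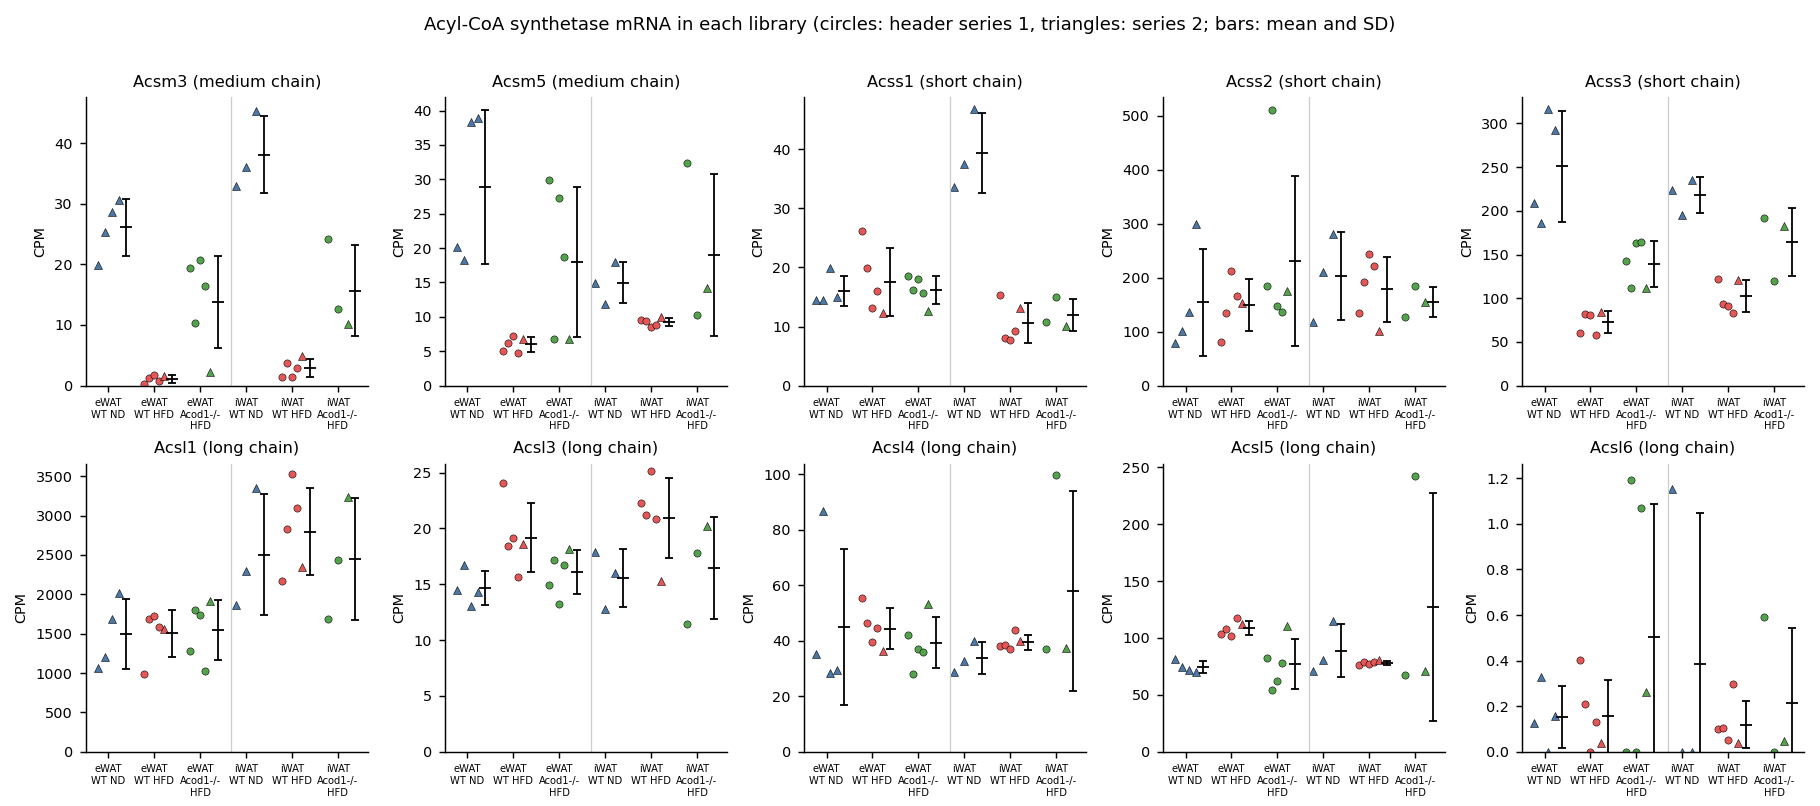
CPM of each of the 10 members in every library, by group, with points for libraries (circles for header series 1, triangles for series 2), bars for the mean and SD, and axes from 0. Acsm3 lies between 19.9 and 30.6 CPM in eWAT ND and at most 1.79 CPM in eWAT WT HFD, and Acod1-/- library 5 of eWAT, at 2.16 CPM, sits near the latter.

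Among the medium chain members, Acsm3 mRNA was low in HFD-fed WT mice of both depots. Its CPM was 19.9, 25.3, 28.7 and 30.6 in eWAT ND libraries 1 to 4, and 0.213, 1.17, 1.79, 0.700 and 1.65 in eWAT WT HFD libraries 1 to 5. The groups lay far apart, and the single WT HFD library of the same header series as the ND libraries, library 5, was among the low ones. The fitted difference between HFD and ND was -4.55 on the log2 scale (SE 0.61, 95% interval -5.87 to -3.23). Because the eWAT WT HFD libraries are also those that chose Acsm3, its low values there are a description.

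iWAT gives the diet comparison in libraries that the choice did not use, although the labels name no animals and the same mice may have given both depots. Acsm3 was at 33.0, 36.0 and 45.3 CPM in ND libraries 1 to 3 and at 1.43, 3.76, 1.37, 2.93 and 4.94 CPM in WT HFD libraries 1 to 5. Again every HFD library lay below every ND library, and Acsm3 fell by 3.69 on the log2 scale (SE 0.42, adjusted p = 0.000154, edgeR's quasi-likelihood test with Benjamini-Hochberg adjustment over all genes tested, as for every adjusted p below). With the header series as a term in the fit the difference was -3.45 (adjusted p = 0.00405).

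Acsm5 fell on HFD in both depots, but by less. In eWAT it was at 20.2, 18.3, 38.4 and 38.9 CPM on ND and at 5.09, 6.198, 7.28, 4.74 and 6.84 CPM in WT HFD libraries, groups that did not overlap, and the difference was -2.26 (SE 0.43, adjusted p = 0.00149). In iWAT it was at 14.99, 11.92 and 17.96 CPM on ND and between 8.56 and 9.97 CPM on HFD, a difference of -0.66 (SE 0.30, adjusted p = 0.0994). These groups too lay apart, but the iWAT call rested on the threshold of 0.1 and was lost whenever any single iWAT WT library was left out, with adjusted p from 0.101 to 0.256. The difference in Acsm5 between HFD and ND was smaller in iWAT than in eWAT by 1.57 on the log2 scale (SE 0.57, adjusted p = 0.0532, interaction term), a call that was lost without eWAT ND library 3 or 4 or iWAT ND library 2 (adjusted p from 0.101 to 0.145). For Acsm3 the same interaction was 0.83 (SE 0.77, 95% interval -0.75 to 2.42), given without a p because its eWAT libraries chose the gene.

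Among the short chain members, Acss3 fell on HFD in both depots. Its CPM was 209, 186, 317 and 293 in eWAT ND and 59.7, 81.8, 80.3, 57.9 and 84.6 in eWAT WT HFD, with no overlap, and the difference was -1.78 (SE 0.19, adjusted p = 0.000152). In iWAT it was 224, 195 and 236 CPM on ND and 122, 93.4, 91.1, 83.6 and 121 CPM on HFD, also without overlap, with a difference of -1.06 (SE 0.18, adjusted p = 0.00116). The interaction of diet and depot was 0.69 (SE 0.28, adjusted p = 0.077), so the fall was smaller in iWAT. That interaction was past the threshold with all libraries but not after leaving out eWAT ND library 3 (0.55, adjusted p = 0.169), eWAT ND library 4, eWAT WT HFD library 1 or 4, iWAT ND library 1 or 2 or iWAT WT HFD library 1 or 5.

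Acss1, the mitochondrial acetate-activating enzyme, fell on HFD in iWAT and did not pass the test in eWAT. In iWAT its CPM was 33.7, 37.6 and 46.8 on ND and 15.3, 7.997, 7.75, 9.16 and 13.1 on HFD, with no overlap, and the difference was -1.85 (SE 0.24, adjusted p = 0.000279). In eWAT it was 14.5, 14.5, 19.8 and 15.1 CPM on ND and 26.2, 19.95, 13.1, 16.0 and 12.2 CPM on HFD, a difference of 0.13 (SE 0.21, 95% interval -0.32 to 0.58, adjusted p = 0.634). The interaction term was -2.01 (SE 0.33, adjusted p = 0.000204). Summed CPM of 6 brown or beige adipocyte markers moved with Acss1 in iWAT, at 181 to 1350 on ND and 58.8 to 107 in WT HFD. So did 6 lymphocyte markers, at 464 to 716 on ND and 5.01 to 64.9 in WT HFD. The part of these in the difference was not tested. Acss2 passed the test in neither depot, with differences of -0.045 (95% interval -1.001 to 0.912) in eWAT and -0.16 (-0.85 to 0.53) in iWAT. Its levels varied widely within groups, from 79.3 to 299.7 CPM in eWAT ND alone.

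The long chain members changed little with diet, and where they changed they rose. Acsl5, an enzyme of the endoplasmic reticulum and mitochondrial outer membrane, was at 81.6, 74.2, 71.6 and 69.7 CPM in eWAT ND and 103.6, 108.0, 101.6, 117 and 112 CPM in eWAT WT HFD. Every HFD library lay above every ND library, with a difference of 0.55 (SE 0.17, adjusted p = 0.0172). Acsl3, found on endoplasmic reticulum and lipid droplets, was at 13.04 to 16.7 CPM on ND and 15.6 to 24.1 CPM on HFD in eWAT, groups that overlapped, and rose by 0.39 (SE 0.14, adjusted p = 0.0353).

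In iWAT neither passed the test. Acsl3 differed by 0.46 (SE 0.21, adjusted p = 0.106) and Acsl5 by -0.15 (SE 0.36, 95% interval -0.93 to 0.63). The interaction of diet and depot for Acsl5 was -0.73 (SE 0.39, adjusted p = 0.195), and it was past the threshold without iWAT Acod1-/- library 2 (-0.74, adjusted p = 0.0234), which entered only through the shared estimate of the spread, and with only the groups compared in the fit (-0.72, adjusted p = 0.00421). Acsl1, the most abundant member, differed by 0.013 on the log2 scale in eWAT (SE 0.24, 95% interval -0.50 to 0.52) and by 0.19 in iWAT (SE 0.26, -0.39 to 0.76).

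Acsl4, which prefers arachidonic acid, depended on 1 library in eWAT. Its CPM was 35.1, 86.9, 28.4 and 29.3 in eWAT ND libraries 1 to 4 and 55.3, 46.5, 39.5, 44.7 and 36.2 in eWAT WT HFD. Library 2 of ND, which held the 7634 CPM of epididymis markers against 2.28 to 17.0 CPM in the other ND libraries, lay above all others. The difference was -0.014 (SE 0.30, adjusted p = 0.973) with library 2 and 0.53 (SE 0.19, adjusted p = 0.0441) without it. In iWAT, Acsl4 differed by 0.25 (SE 0.28, adjusted p = 0.498).

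Acsm3, which these eWAT libraries chose, is left out of the counts in eWAT. Of the 8 other members that passed the filter, 4 were called for diet there, 2 lower (Acsm5 and Acss3) and 2 higher (Acsl3 and Acsl5), beside 51.8% of the 14936 genes tested there, 26.9% lower and 24.8% higher. In iWAT 4 of 9 were called, all lower (Acsm3, Acsm5, Acss1 and Acss3), beside 50.1% of 14801 genes, 24.2% lower and 25.9% higher. The counts of members called were thus near the background. Groups did not overlap for 3 of the 8 other members in eWAT, 2 lower and 1 higher, beside 35.2% of genes (18.0% lower and 17.2% higher), and for 4 of 9 in iWAT, all lower, beside 47.1% (24.1% lower and 23.0% higher). Summed CPM of 5 skeletal muscle markers was 6989 in iWAT ND library 1, 3.32 and 264.5 in the other iWAT ND libraries and 17.96 to 278.6 in iWAT WT HFD, all 5 of these genes were called lower on HFD there, and their part in the members' differences was not tested. Interaction terms of diet and depot were called for 3 of the 8 other members (Acsm5, Acss1 and Acss3), beside 29.0% of 15034 genes.

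Acsl6, the remaining long chain member, did not pass the filter of a mean of 1 CPM in either depot. It had 0 to 49 counts per library, at most 1.19 CPM, and 0 counts in eWAT ND library 3, eWAT WT HFD library 3, eWAT Acod1-/- libraries 1 and 3, iWAT ND libraries 2 and 3 and iWAT Acod1-/- library 2. A count of 0 in a single library allows up to 3 counts, by counting error alone. Two-sided exact permutation tests of its CPM gave p = 0.968 for diet in eWAT, 0.75 for diet in iWAT and 0.714 for genotype in iWAT. For genotype in eWAT, given as a description, its mean was 0.505 CPM in Acod1-/- and 0.156 CPM in WT HFD. A difference was not detectable at this depth.

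**Figure D3:**
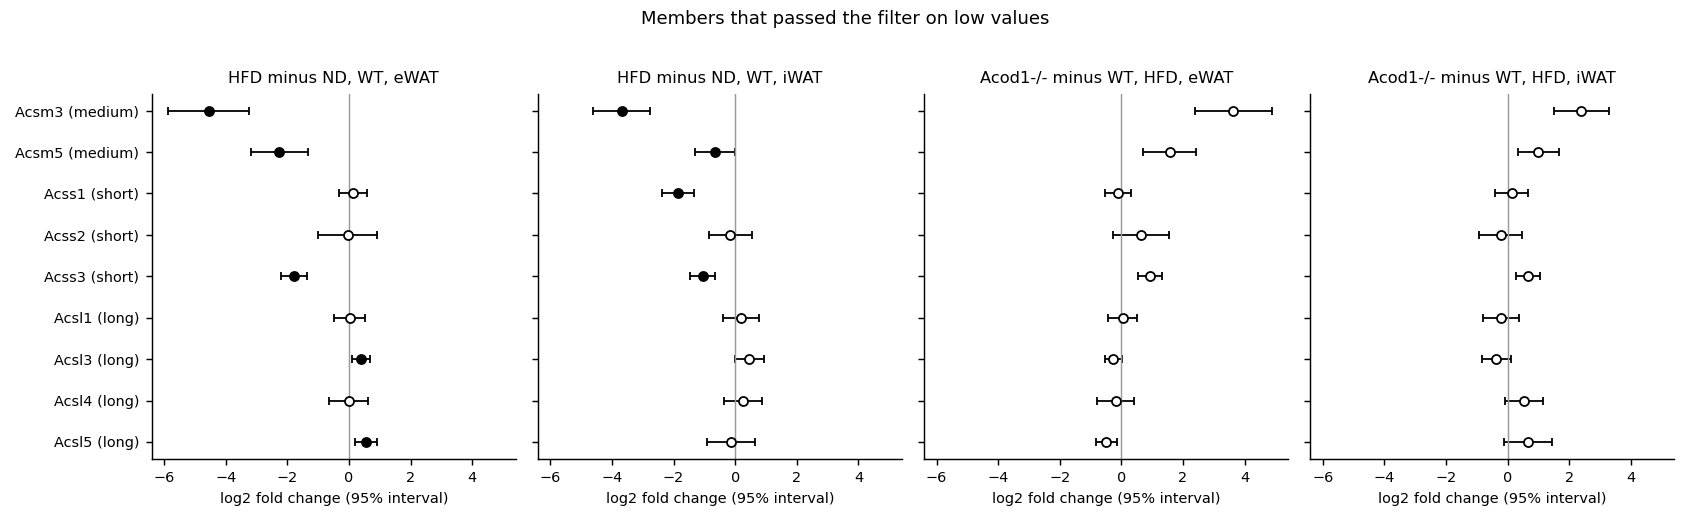
Fitted log2 fold changes with 95% intervals of the 9 members that passed the filter, for HFD minus ND in WT mice and for Acod1-/- minus WT mice on HFD, in each depot. Filled points were called at an adjusted p under 0.1 and open points were not. For genotype in eWAT, the contrast that chose Acsm3, all points are drawn open whether called or not. The medium chain members and Acss3 lie left of 0 in both diet panels and right of 0 in both genotype panels. In each depot the diet and genotype panels share the WT HFD libraries, which by itself favours opposite signs.

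Between genotypes in eWAT, the contrast that chose Acsm3, the members are described without tests. This contrast and the diet contrast share the 5 eWAT WT HFD libraries. Acsm3 was at 19.4, 10.3, 20.7, 16.4 and 2.16 CPM in Acod1-/- libraries 1 to 5, so that all lay above the highest WT HFD library (1.79 CPM), library 5 only narrowly. Without library 5 of either genotype, that is within header series 1, the fitted difference was 4.09 (SE 0.55). Acsm5 was at 29.8, 6.84, 27.3, 18.7 and 6.83 CPM, with libraries 2 and 5 inside the range of WT HFD, and a fitted difference of 1.57 (SE 0.40). Acss3 was at 143, 112, 163, 165 and 111 CPM, all above WT HFD, with a difference of 0.93 (SE 0.18).

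Acsl5 was lower in Acod1-/- libraries 1 to 4, at 82.5, 53.9, 62.0 and 78.1 CPM, whereas library 5, at 110.8 CPM, lay inside the range of WT HFD. Its fitted difference was -0.49 (SE 0.15), and -0.65 (SE 0.16) within header series 1. Acss2 differed by 0.63 (SE 0.42), and library 2 lay far above the others (511 CPM, against 137 to 185 CPM), with a difference of 0.11 without it. Acsl1 (0.040, SE 0.22), Acsl3 (-0.26, SE 0.13), Acsl4 (-0.18, SE 0.28) and Acss1 (-0.11, SE 0.20) differed by less. Acsm3, which this contrast chose, is left out of the calls. Of the other members, the fit called Acsm5 and Acss3 higher and Acsl5 lower at the threshold of 0.1, beside 19.9% of all genes (9.13% higher and 10.8% lower). Their groups did not overlap for Acss3 alone (higher), beside 7.14% of genes (2.81% higher and 4.34% lower). The list was built around Acsm3 on this contrast, and nothing is read from these calls.

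Other markers moved with these differences. Summed CPM of 8 macrophage markers was 1135 to 3778 in eWAT WT HFD, 324 to 1189 in eWAT Acod1-/- and 393 to 739 in eWAT ND. Acod1-/- library 5, the library nearest to WT HFD in Acsm3 and Acsl5, had the highest macrophage sum of its group (1189 CPM). Library 2, which like library 5 lay inside the WT HFD range of Acsm5, had the lowest (324.2 CPM). Summed adipocyte markers ranged from 22380 to 42690 in eWAT WT HFD and from 34300 to 48400 in eWAT Acod1-/-, where library 5 was lowest and library 2 highest. Their part in the differences was not tested.

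In iWAT, libraries that did not enter the choice of Acsm3 can be tested for genotype, although they may come from the same mice as those of eWAT. This contrast and the diet contrast in iWAT share the iWAT WT HFD libraries. Acsm3 was at 24.2, 12.6 and 10.2 CPM in Acod1-/- libraries 1 to 3, all above the highest WT HFD library (4.94 CPM), and the difference was 2.4 (SE 0.41, 95% interval 1.49 to 3.31, adjusted p = 0.133). Its unadjusted p was 0.000108. edgeR called 0 of 9 members and 0% of 14801 genes in this contrast. At an unadjusted p under 0.05 there were 3 members (Acsm3, Acsm5 and Acss3) and 16.6% of genes. DESeq2, the method of the study, called the same 3 members, all higher, beside 1072 of the 14801 genes. Groups did not overlap for 2 of 9 members (Acsm3 and Acsm5, both higher), beside 8.26% of genes (3.66% higher and 4.59% lower). Acsm5 was at 32.4, 10.3 and 14.3 CPM, just above the WT HFD maximum of 9.97 CPM at its lowest, with a difference of 1.004 (SE 0.30, adjusted p = 0.157). Acss3 was at 192, 119 and 182 CPM, where library 2 overlapped WT HFD, with a difference of 0.66 (SE 0.18, adjusted p = 0.153). Summed macrophage markers lay lower in iWAT Acod1-/- (280.0 to 352.4 CPM) than in iWAT WT HFD (392.8 to 1043 CPM) and brown or beige adipocyte markers higher (121.8 to 309.7 against 58.75 to 107.3 CPM), both without overlap, and their part in these differences was not tested.

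The adjusted p of Acsm3 in iWAT depended on the setting. It was 0.0505 without a filter on low counts, 0.078 with 1 CPM required in every library, 7.81e-06 by DESeq2 and 0.0252 within header series 1, where the difference was 2.96 (SE 0.47) over 2 Acod1-/- and 4 WT libraries. It was 0.0156 without Acod1-/- library 3 and 0.0439 without WT HFD library 5, both of header series 2. With the series as a term it was 0.122, and it reached 0.264 without WT HFD library 4, the highest of the alternatives.

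Acsl4 and Acsl5 in iWAT stood apart in Acod1-/- library 2. Acsl5 was at 67.5, 242 and 71.1 CPM in Acod1-/- libraries 1 to 3, against 76.4 to 80.9 CPM in WT HFD, and Acsl4 at 37.2, 99.7 and 37.4 CPM against 36.9 to 43.9 CPM. Only library 2 lay above WT HFD. The Acsl5 difference was 0.66 (SE 0.35, adjusted p = 0.37) with it and -0.18 (adjusted p = 0.684) without it. That library also held 530.8 CPM of 5 epithelial markers, against 2.53 and 3.94 CPM in the other Acod1-/- libraries, and its labelled time was 17 weeks. Whether these belong together was not tested. Acsl1 (-0.21), Acsl3 (-0.37), Acss1 (0.14) and Acss2 (-0.22) had adjusted p of 0.417 or more.

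How near the members of HFD-fed Acod1-/- mice came to those of ND-fed WT mice was compared directly. In eWAT 1 of the 8 members besides Acsm3 was called, Acss3, which remained lower than on ND by 0.86 (log2 difference -0.86, SE 0.19, adjusted p = 0.0147), beside 26.5% of all genes. It was also the 1 of these 8 members whose groups did not overlap, beside 17.5% of genes (8.19% higher and 9.26% lower). With the header series as a term its adjusted p was 0.11 at -0.88. Acsm5 (-0.69, SE 0.41, 95% interval -1.58 to 0.20) did not pass the test there, with an interval that reaches well below 0. The difference of Acsm3 was -0.92 (SE 0.54, interval -2.09 to 0.25), a description, since libraries in this comparison chose it.

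In iWAT 3 of 9 members were called between Acod1-/- on HFD and WT on ND, beside 34.6% of all genes. Groups did not overlap for 3 of 9 (Acsm3, Acss1 and Acss3, all lower), beside 36.9% (19.1% lower). Acss1 was lower than on ND by 1.72 (log2 difference -1.72, SE 0.28, adjusted p = 0.0015), at 10.83, 15.01 and 10.02 CPM in Acod1-/- libraries. Acsm3 was lower (-1.29, SE 0.47, adjusted p = 0.065), with all 3 libraries below ND, and Acsl4 was higher (0.78, SE 0.32, adjusted p = 0.0927). The call of Acsm3 was lost without ND library 2 or 3 or Acod1-/- library 2 or 3 (adjusted p from 0.123 to 0.167), and that of Acsl4 without Acod1-/- library 2 (0.15, adjusted p = 0.476) and in most other leave-outs. With the header series as a term, Acsm3 (-1.01, adjusted p = 0.29) and Acsl4 (0.54, adjusted p = 0.354) were not called.

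Between depots of ND-fed WT mice, Acss1 was higher in iWAT than in eWAT by 1.30 (SE 0.25, adjusted p = 0.000793), with all iWAT libraries above all eWAT libraries, and Acsl1 was higher by 0.74 (SE 0.27, adjusted p = 0.0512) with overlap. These were 2 of 9 members, beside 31.7% of 15034 genes. Groups did not overlap for 3 of 9 in either direction (Acsm3, Acss1 and Acsm5), beside 35.9% of genes. Acsl1 was no longer called without eWAT ND library 1 or 2 or iWAT ND library 3 (adjusted p from 0.125 to 0.288).

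On HFD, 3 of the 8 members besides Acsm3 were called between depots of WT mice (Acsl1, Acss1 and Acss3), beside 18.6% of genes, and groups did not overlap for 3 of these 8 (Acsm5 and Acsl1 higher and Acsl5 lower in iWAT), beside 5.12% of genes higher and 7.04% lower. Acsl1 was higher in iWAT by 0.89 (SE 0.23, adjusted p = 0.0137), at 2175 to 3532 CPM against 982 to 1723 CPM. Acss1 was lower in iWAT by 0.71 (log2 difference -0.71, SE 0.21, adjusted p = 0.0313), the opposite order to that on ND, although the groups overlapped and the call was lost without eWAT WT HFD library 1 (adjusted p = 0.128). Acss3 was higher in iWAT with overlap (0.49, SE 0.18, adjusted p = 0.0692), and its call was lost without eWAT WT HFD library 1 or 4 or iWAT WT HFD library 1 or 5 (adjusted p from 0.157 to 0.192). Acsm3 differed by 1.38 (SE 0.51), a description, since its eWAT values chose it. In Acod1-/- mice 0 of the 8 members besides Acsm3 were called between depots by edgeR or DESeq2, beside 3.81% of genes (1.80% higher and 2.01% lower). By edgeR 2 of them (Acsl1 and Acsl5) had an unadjusted p under 0.05. Acsm3 differed there by 0.18 (SE 0.55), again a description.

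The difference between genotypes was also compared between depots. Of the members besides Acsm3, 0 were called by edgeR or DESeq2, beside 0.00665% of genes. At an unadjusted p under 0.05 by edgeR there was 1 of them (Acsl5), beside 10.1% of genes. The interaction for Acsm3 was -1.20 (SE 0.76, 95% interval -2.76 to 0.37). It is a description, since its eWAT part is the contrast that chose the gene.

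**Figure D4:**
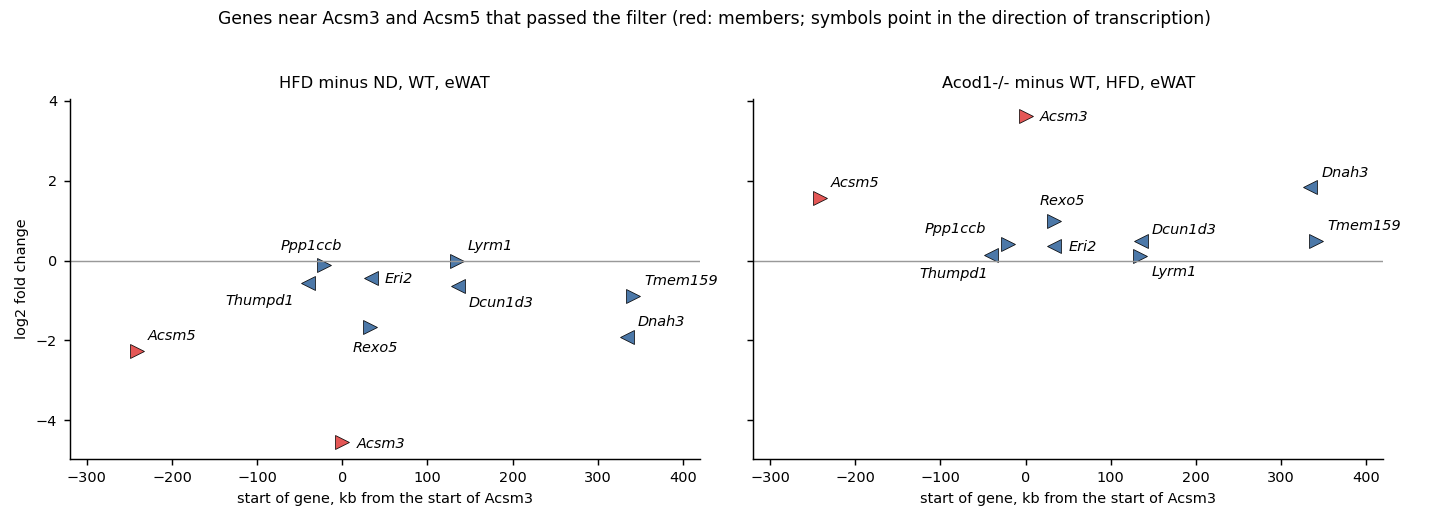
Fitted log2 fold changes in eWAT of Acsm3, Acsm5 and the 8 other genes within 500 kb of either that passed the filter, against the distance of each gene's start from that of Acsm3 in kb, with symbols pointing in the direction of transcription. On HFD all lie at or below 0, and Acsm3 and Acsm5 lie lowest.

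Acsm3 and Acsm5 sit in a cluster with Acsm1, Acsm2 and Acsm4. Acsm2 and Acsm4 did not pass the filter in either depot. Acsm1, which is no member and was singled out after its values were seen, had 0 counts in all 4 eWAT and all 3 iWAT ND libraries, and 2.16, 5.67, 1.12, 7.01 and 2.55 CPM in iWAT WT HFD. In iWAT Acod1-/- HFD it was at 1.43 to 5.30 CPM. Summed CPM of 6 liver and kidney markers rose alongside, from 14.6 to 36.0 in iWAT ND to 99.0 to 811.9 in iWAT WT HFD. In the fit of both depots only the liver markers Alb, Ttr and Apoa1 passed the filter, and the kidney markers Umod, Slc34a1 and Kap did not. The part of these markers was not tested.

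Of 35 genes within 500 kb, 8 besides the members passed the filter in eWAT, and 6 of them were called lower on HFD and 0 higher, beside 26.9% and 24.8% of all genes tested there. The lowest, named after their values were seen, were Dnah3, a dynein heavy chain (-1.90, adjusted p = 0.0173), and Rexo5, an RNA exonuclease (-1.66, adjusted p = 0.000304). Rexo5 is the next gene downstream on the strand of Acsm3, and it was lower in iWAT as well (-1.44, adjusted p = 0.000524). In iWAT 3 of 8 such genes were called lower and 1 (Lyrm1) higher, beside 24.2% and 25.9% of genes. Acsm1, at 0 counts on ND, passed the filter only through its HFD groups and is not counted. Between genotypes in eWAT 4 of 8 were called higher and 0 lower, beside 9.13% and 10.8% of genes, and Dnah3 differed by 1.83 and Rexo5 by 0.995.

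Some member genes overlap others, and the sources used here do not state whether reads were counted by strand. Eri2, on the opposite strand, shares 18835 bases with Acsm3. Eri2 was lower on HFD by 0.44 in eWAT (log2 difference -0.44, adjusted p = 0.0681) and by 0.51 in iWAT (-0.51, adjusted p = 0.0221), beside -4.55 and -3.69 for Acsm3. Zdhhc6 shares 26430 bases with Acsl5 and Gss 22544 bases with Acss2, both on the opposite strand and both expressed (mean 44.2 and 27.8 CPM), so values of these members could include reads of their partners.

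Genes most like Acsm3 were sought by Pearson's r of log2 CPM. Over the 14 eWAT libraries they were Adrb3 (r = 0.98), the beta-3 adrenergic receptor of adipocytes, Aldh6a1 (0.979), the methylmalonate semialdehyde dehydrogenase of valine breakdown, BC035947 (0.979), Klhl2 (0.976) and Agt (0.975), which encodes angiotensinogen. Of the members, Acss3 (r = 0.92) ranked 123rd and Acsm5 (0.897) 215th of 14936 genes, and Acsl3 (-0.804) and Acsl5 (-0.798) ranked near the other end. Over all 25 libraries they were Cfd (0.958), which encodes the adipokine adipsin, Ivd (0.956), the isovaleryl-CoA dehydrogenase of leucine breakdown, Aldh6a1 (0.949), Prodh (0.946), the first enzyme of proline breakdown, and Gm11837 (0.941), and Acss3 (0.906) ranked 20th. The libraries share the 6 groups, so these correlations follow the differences between groups and are a description.

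**Figure D5:**
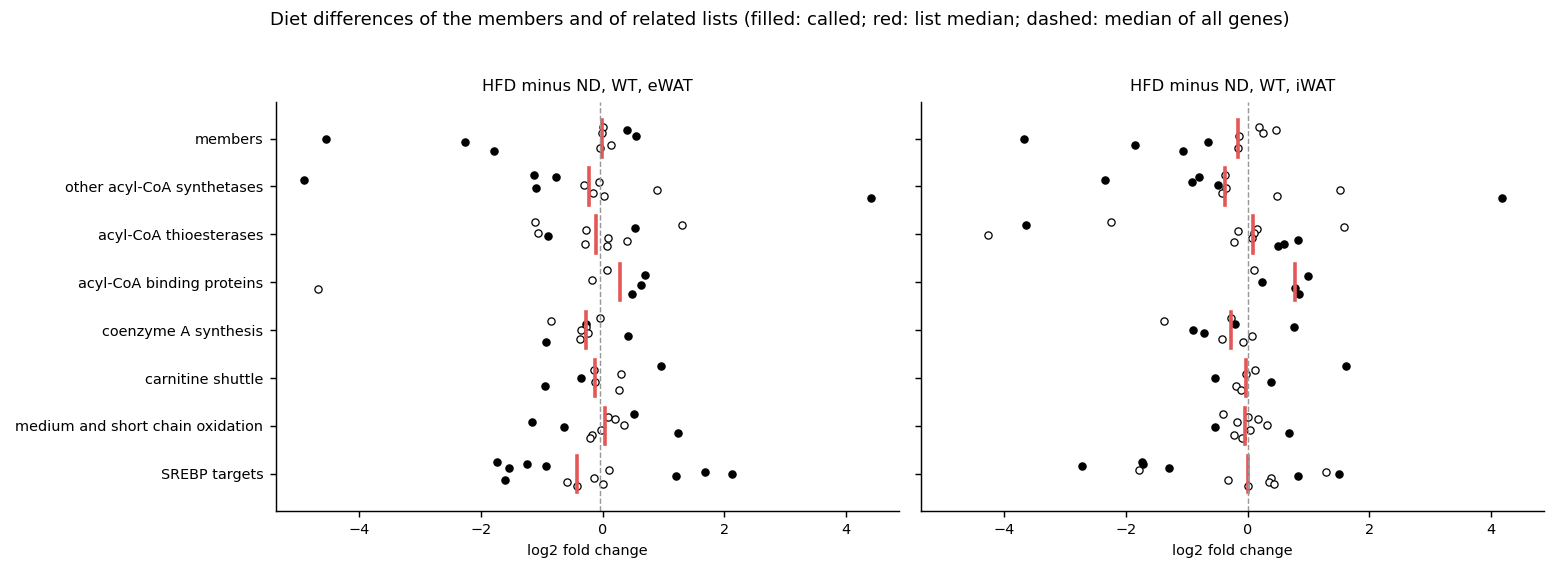
Fitted log2 fold changes on HFD in WT eWAT and iWAT of the 9 members that passed the filter and of genes in 7 related lists, filled where called, with a red line for the median of each list and a dashed line for the median of all genes tested. Acsm1 in iWAT, at 0 counts on ND, is not drawn.

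Genes of 7 related lists were counted beside the background of the same contrasts, 24.8% higher and 26.9% lower in eWAT and 25.9% higher and 24.2% lower in iWAT. Of the other acyl-CoA synthetases, 4 of 10 tested genes fell on HFD in eWAT, with a median log2 difference of -0.23 beside -0.038 over all genes. The largest falls were in Acsbg1, a very long chain synthetase (-4.90, adjusted p = 0.000935), Aacs, which activates acetoacetate (-1.12, adjusted p = 0.00321), and Slc27a1, a fatty acid transporter with synthetase activity (-1.10, adjusted p = 0.00914). Slc27a5, the bile acid and very long chain synthetase of liver, rose from at most 0.202 CPM to between 0.545 and 4.49 CPM. The 6 liver and kidney markers, of which 3 passed the filter in eWAT, summed to 10.7 to 15.8 CPM in eWAT ND and 50.7 to 360 CPM in eWAT WT HFD. In iWAT 4 of 10 fell, without Acsm1. Slc27a5, at no more than 0.478 CPM in any ND library of either depot, also passed the filter through its HFD groups. Its rise in both depots is therefore not counted, although it stays among the 10 tested genes and in the median.

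Of the carnitine shuttle, which carries long chain acyl groups into mitochondria, 1 of 7 rose in eWAT, Cpt1a (0.96, adjusted p = 0.00212), and 2 fell, led by the carnitine transporter Slc22a5 (-0.95, adjusted p = 0.00738). Of the medium and short chain oxidation enzymes, 2 of 10 rose (Etfb 1.24 and Acaa2 0.52) and 2 fell (Acadsb -1.16 and Echs1 -0.64), with a median of 0.031. Acadm, the medium chain acyl-CoA dehydrogenase, differed by 0.091 (adjusted p = 0.584) in eWAT and 0.011 (adjusted p = 0.968) in iWAT, where Acsm3 fell by 3.69.

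Among SREBP targets, to which Acss2 belongs, 5 of 13 fell in eWAT, led by Acaca (-1.73), Pnpla3 (-1.60) and Fasn (-1.53), and 3 rose, among them Insig1 (2.13) and Hmgcs1 (1.68). Acaca and Fasn encode enzymes of fatty acid synthesis, and Hmgcs1 an enzyme of sterol synthesis. Of acyl-CoA thioesterases, which reverse the reaction of the synthetases, 1 of 10 rose (Acot13) and 1 fell (Acot6). Of acyl-CoA binding proteins 3 of 6 rose and 0 fell, and of coenzyme A synthesis genes 1 of 9 rose and 2 fell. In iWAT the acyl-CoA binding proteins had the highest median of the lists, 0.78, with 4 of 5 called higher.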

How the data were processed

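RNA of 25 libraries of white adipose tissue (6 groups of 3 to 5, taken from the sample labels) had been sequenced from stranded poly(A) libraries. Per the labels and methods, the authors trimmed reads with cutadapt, removed contaminant reads and aligned the rest with STAR to mm10 (GRCm38), and they deposited raw counts per gene. The program that counted reads and its use of strand are not given in the sources used here. The authors also deposited FPKM values, which were recomputed from the counts and lengths to within 0.0005. Reads on no feature (6.41% to 11.88% per library) and ambiguous reads (1.52% to 2.07%) were left out of library sizes.

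The counts were tested with edgeR 4.0.16 (R 4.3.3, limma 3.58.1, TMM, quasi-likelihood test) in 1 fit per depot of 3 groups, and comparisons between depots in 1 fit of all 6 groups. Genes whose mean over the libraries of a fit reached 1 CPM were tested, p-values were adjusted over all of them by Benjamini-Hochberg, and genes were called at an adjusted p under 0.1. Intervals are at 95%. CPM used TMM library sizes, TPM was computed from the counts and deposited gene lengths, and log2 CPM for correlations used a prior count of 2. DESeq2 1.42.0, other filters and size factors, a stricter threshold of 0.05, a replicate block, the header series and leaving out each library were alternatives. Acsl6, under the filter, was tested by exact permutation. The scripts were tested on simulated data. Tables and figures used Python 3.11.15, numpy 2.4.6, scipy 1.17.1, pandas 2.3.3 and matplotlib 3.10.9.

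The members and the lists of related genes were chosen with earlier results of these data known. All 10 members were named, with up to 3 called genes per direction of each list by size of the diet difference in eWAT. 1 such gene is not reported here. Acadm, Acsm1 and the neighbours and overlapping genes of members were singled out after their values were seen. Libraries of a group differed by more than sampling noise (chi-square per degree of freedom of 33.7 or more). The study gives as many mice as libraries for each group of both depots. The labels name no animals, and p-values measure the spread between libraries. A limit from a count of 0 covers counting error only.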

Additional observations from a re-analysis of the deposited data

Results flagged for a closer look

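Of 40 pairs of a member and a group of 4 or 5 libraries, 5 held a library far from the others by Dixon's test, which chance gives in about 1 of 20. Acsl1 was at 981.8 CPM in eWAT WT HFD library 1, below the others (1559 to 1723 CPM). Acsl4 was at 86.92 CPM in eWAT ND library 2, the library with 7634 CPM of epididymis markers, above the others (28.37 to 35.13 CPM). Acsl6 was at 0.2953 CPM in iWAT WT HFD library 4, which rests on 12 counts, above the others (0.04013 to 0.1022 CPM). Acss1 was at 19.83 CPM in eWAT ND library 3, above the others (14.49 to 15.08 CPM). Acss2 was at 511.4 CPM in eWAT Acod1-/- library 2, above the others (136.6 to 184.6 CPM).

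The difference between HFD and ND differed between depots for 3 members by the interaction term of edgeR's quasi-likelihood test. Its value, iWAT minus eWAT on the log2 scale, was 1.574 for Acsm5 (adjusted p = 0.0532), -2.014 for Acss1 (adjusted p = 0.000204) and 0.6919 for Acss3 (adjusted p = 0.077).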

How the results depend on the processing

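Of 829 member results under alternatives other than leaving out 1 library, 783 kept their side of the threshold, 26 lost a call, 20 gained one and 0 reversed. Of 1800 results with 1 library left out, 1732 kept their side of the threshold, 49 lost a call and 18 gained one. The remaining 1 reversed, Acsl4 for diet in eWAT (-0.18 to 0.53, the latter without ND library 2). Among those that kept their side, 16 and 65 values changed sign, all uncalled in both fits. Counts of members called, Acsm3 included, that moved by more than 1.5 times were as follows, and the causes were not tested. At an adjusted p under 0.05 they were 1 for Acod1-/- on HFD against ND in iWAT (3 otherwise), 1 for depot on ND (2), 2 for depot on HFD (4) and 1 for diet by depot (3). Without a filter on low counts they were 1 for genotype in iWAT (0), 1 for depot on ND and 2 for depot on HFD. Genotype in iWAT gave 1 with 1 CPM in every library, 3 by DESeq2 and 2 within header series 1. That series alone gave 2 for depot on HFD, 1 for depot in Acod1-/- (0) and 1 for genotype by depot (0). With the series as a term they were 0 for Acod1-/- on HFD against ND in eWAT (1) and 1 in iWAT (3). With 1 library left out the counts were 5 to 6 for diet and 3 to 4 for genotype in eWAT, 3 to 5 and 0 to 4 in iWAT, 1 to 1 in eWAT and 1 to 3 in iWAT against ND, 1 to 3 for depot on ND, 1 to 5 on HFD, 0 to 1 in Acod1-/-, 1 to 4 for diet by depot and 0 to 1 for genotype by depot. With group means removed, libraries of the same number correlated above 0.1 in 4 of 11 pairs between depots, 9 of 13 within eWAT and 3 of 9 within iWAT. Between depots r ran from -0.09 to 0.49. Libraries of unlike number were not compared, so this cannot settle whether the numbers pair libraries. The main fits treated libraries as independent. With a replicate block, depot on ND gave 4 and depot in Acod1-/- gave 1. Over all genes, genotype in iWAT gave 0 calls with edgeR and 1072 with DESeq2, 77 without a filter and 2157 within header series 1. Few counts of Acsl6 limit what could be seen of it.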
